A study of Rattus norvegicus with 24 samples.

Results

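BMS-21, named in the labels by its code alone, was set against glucagon-like peptide 1 (GLP-1) in INS-1 cells. These cells come from a rat insulinoma, still secrete insulin and are widely used to stand in for beta cells. The comparison took every library of the study that received either agent, 16 of 24: 4 libraries with BMS-21 (1 µM) and 4 with GLP-1 (100 nM) after 1 h, and 4 and 4 after 6 h. The other 8 libraries are Control (vehicle DMSO), 4 at each time, and are used here only to place the levels of both agents. Cells had been held at 3 mM glucose for 90 min and were then given medium with 11 mM glucose and the treatment, so every group carries the same step in glucose. The agents differ in concentration, so that agent and dose cannot be told apart. Libraries of the same replicate number, 1 to 4, were treated as pairs, each pair being 1 BMS-21 and 1 GLP-1 library of the same time. All genes with a mean normalised read count of at least 10 over the 8 libraries of a time were tested, 12672 of 26404 at 1 h and 12629 at 6 h.

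GLP-1 is a gut hormone whose receptor on beta cells couples to the stimulatory G protein, raises cAMP and potentiates insulin secretion at high glucose. The rise in cAMP activates protein kinase A, the exchange factor EPAC and the transcription factor CREB, and these switch on immediate early genes within minutes and a slower programme of metabolic and secretory genes later. A second agent set against the hormone at the same times shows in which transcripts the cells given one or the other differ. The direct contrast does not show whether a transcript responded to either agent.

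The 16 libraries held 10667350 to 13148970 reads assigned to genes, and 15899 to 16223 genes had at least 1 read in each. The floor of detection, set at 3 reads for counting error, corresponded to 0.228 to 0.281 RPM (reads per 1000000 of the library's total). The 10 beta-cell markers together made up 16690 to 19170 RPM with BMS-21 and 16450 to 17620 RPM with GLP-1 at 6 h, and the defining alpha-cell gene Irx2 and the acinar genes Cela1 and Amy2a3 were at 0 in all 16 libraries. The glucagon gene Gcg was measured at 7.43 to 14.07 RPM. The labels do not say that replicates were separate cultures, so p-values measure the spread between these libraries only, which may be technical. Values after ± are standard errors for log2 fold changes, and standard deviations for means, with 4 libraries a group. A gene is called where the Benjamini-Hochberg adjusted p of limma's paired fit over all genes tested was under 0.05. Per-library values, and means where no unit is given, are normalised read counts, with libraries in the order of replicates 1 to 4.

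After 1 h the cells given BMS-21 differed from those given GLP-1 in few transcripts and by small amounts. Of 12672 genes 85 (0.671%) were called, 28 higher (0.221%) and 57 lower (0.45%) with BMS-21. The called genes had a fold of 1.04 to 2.25 where higher and of 0.492 to 0.966 where lower, with medians of 1.104 and 0.913. Only LOC100361645 and Gprc5a, both with a mean under 50, passed 1.5-fold. They fall outside the naming rule and were chosen after their values were seen (log2 fold change 1.17 ± 0.31 and -1.02 ± 0.25). LOC100361645 lost its call without pair 1, 2 or 3 (limma adjusted p up to 0.426). Gprc5a lost its call with any 1 of the 4 pairs left out (limma adjusted p up to 0.1852). All 4 pairs moved the same way in 27 of the 28 genes called higher and in 56 of the 57 called lower, against 16.5% of all genes tested, and the groups did not overlap in 9 of 28 and 9 of 57, against 2.51% of all genes. The paired fit on these libraries favours genes whose pairs agree, so these contrasts with all genes were largely built in. These calls rest on the pairing and on the tool. Without the replicate block limma called 0 genes (432 at an unadjusted p under 0.05), with the block edgeR called 86, 83 of them the same genes, and DESeq2 called 2 (166 at an unadjusted p under 0.05), Iapp and Txnip. They also rest on the libraries fitted: limma on all 24 libraries with the same block kept 6 of the 85 calls, among them Txnip, Smad7, Hspa12a, Fabp5 and Slc8a2. In that fit Klf4 (limma adjusted p = 0.714), Junb (0.188), Iapp (0.662), Ins1 (0.828), Gpd1 (0.654) and Rasd1 (0.458) did not pass.

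Immediate early transcription factors, the first genes that a signal switches on, were split at 1 h: 3 of 26 measured members were called higher and 1 lower, with a median log2 fold change of -0.0254 against 0.0 over all genes. The shares of all genes tested were 0.221% called higher and 0.45% lower. Klf4 (ENSRNOG00000016299), a zinc finger repressor and activator of differentiation genes, had 1219, 1171, 1065 and 1047 in BMS-21 libraries, against 1036, 1021, 973 and 864 in GLP-1 libraries. No BMS-21 library was below any GLP-1 library (log2 fold change 0.21 ± 0.034, limma adjusted p = 4.21e-05). Junb, a member of the AP-1 family of transcription factors, had 2574, 2661, 2772 and 2527 in BMS-21 libraries, against 2279, 2430.2, 2493 and 2216 in GLP-1 libraries, again with no overlap (log2 fold change 0.16 ± 0.024, limma adjusted p = 5.57e-06). Egr1, a zinc finger factor induced by MAP kinase and calcium signals, had 2148, 2495, 3151 and 2160.1 in BMS-21 libraries, against 1979, 2228, 2727 and 2056 in GLP-1 libraries. The groups overlapped, with replicate 3 highest for both agents, and every pair was higher with BMS-21 (log2 fold change 0.14 ± 0.025, limma adjusted p = 0.000303). Nr4a3, an orphan nuclear receptor, was the member called lower (1346 ± 265 in BMS-21 libraries and 1459.6 ± 182 in GLP-1 libraries, log2 fold change -0.13 ± 0.032, limma adjusted p = 0.0224), and was chosen after its values were seen. Klf4 and Junb kept their calls with any 1 pair left out. Egr1 and Nr4a3 lost their calls without pair 3 (limma adjusted p up to 0.0699 for Egr1 and 0.586 for Nr4a3). Levels with both agents lay above vehicle. Klf4 had 94.9 RPM with BMS-21, 82.0 RPM with GLP-1 and 8.13 RPM in Control. Junb had 222 RPM with BMS-21, 198 RPM with GLP-1 and 36.5 RPM in Control. Nr4a3 stood at 114 RPM with BMS-21, 123 RPM with GLP-1 and 6.81 RPM in Control.

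Other members of the same list did not pass the test, and their intervals bound the difference. Nr4a1, a further orphan nuclear receptor that cAMP induces, had a log2 fold change of -0.013 (95% interval -0.046 to 0.021). For Fosb, which encodes another AP-1 subunit, it was 0.028 (95% interval -0.043 to 0.10). Fos, the founding AP-1 gene, was higher with BMS-21 in all 4 pairs at 0.12 (95% interval 0.050 to 0.20), but its adjusted p of 0.118 with limma missed the threshold. The MAP kinase phosphatases and Sprouty proteins, which feed back on that pathway, had 0 of 15 members called with a median of -0.0879.

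Targets of CREB and its CRTC coactivators had 2 of 24 members called higher and 1 lower at 1 h (median log2 fold change -0.0434). All genes tested gave 0.221% higher and 0.45% lower. Rasd1, a Ras-like G protein induced by glucocorticoids and cAMP, had 2419.9, 2343, 2549 and 2180.2 in BMS-21 libraries, against 2129, 2234, 2307 and 1971 in GLP-1 libraries (log2 fold change 0.14 ± 0.025, limma adjusted p = 0.000538). Nfil3, a bZIP repressor tied to the circadian clock, was higher in each pair as well, at 2957 ± 83.7 in BMS-21 libraries and 2769 ± 125 in GLP-1 libraries (log2 fold change 0.096 ± 0.023, limma adjusted p = 0.0174). The member called lower was Smad7 (ENSRNOG00000018359), the inhibitory Smad that shuts off TGF-beta receptors, with 501, 389, 233 and 339 in BMS-21 libraries, against 609, 469, 364 and 398 in GLP-1 libraries. Replicate 1 was highest and replicate 3 lowest with both agents, so that the groups overlapped while each pair was lower with BMS-21 (log2 fold change -0.36 ± 0.055, limma adjusted p = 1.95e-05). Skil, a corepressor of Smad proteins that TGF-beta signalling induces, had 907, 792, 658 and 727 in BMS-21 libraries, against 979, 920.1, 770.2 and 877 in GLP-1 libraries, lower in each pair (log2 fold change -0.21 ± 0.038, limma adjusted p = 0.000538). Both are among the 17 measured TGF-beta, activin and Notch responders, of which 2 were called lower and 0 higher (median -0.0676). Rasd1, Smad7 and Skil kept their calls with any 1 pair left out. Nfil3 lost its call without pair 1, 3 or 4 (limma adjusted p up to 0.192). The panel genes of this pathway did not pass. The log2 fold change was -0.063 (95% interval -0.10 to -0.022) for Crem, whose products include cAMP-induced repressors. It was -0.040 (95% interval -0.084 to 0.0038) for the clock gene Per1 and 0.0069 (95% interval -0.023 to 0.037) for Irs2, an insulin receptor substrate that supports beta-cell growth. For the cAMP phosphodiesterase Pde4b it was -0.37 (95% interval -0.62 to -0.12).

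In the paired fit of the 8 libraries, transcripts of Iapp, Ins1 and Ins2 were slightly more abundant with BMS-21 at 1 h. Of 23 measured genes of beta-cell identity and glucose sensing, 3 were called higher and 0 lower, with a median log2 fold change of 0.0101. This compares with 0.221% higher and 0.45% lower over all genes. Iapp, which encodes the amyloid polypeptide secreted with insulin, had 45959, 45427, 37115 and 38971 in BMS-21 libraries, against 42632, 43331, 34735 and 36311 in GLP-1 libraries. Each pair was higher by a similar amount, although replicates 3 and 4 were low with both agents (log2 fold change 0.094 ± 0.012, limma adjusted p = 1.44e-07). Ins1 had 117005, 117489, 116551 and 117454 in BMS-21 libraries, against 112471, 107087, 112821 and 114865 in GLP-1 libraries without overlap (log2 fold change 0.067 ± 0.010, limma adjusted p = 1.95e-05). Ins2 was higher in 3 of 4 pairs (log2 fold change 0.066 ± 0.015, limma adjusted p = 0.0117). It stood at 1390 RPM with BMS-21, 1329 RPM with GLP-1 and 1410 RPM in Control. The 2 insulin genes are near-identical, so reads may be split between them with error. The 10 beta-cell markers, which include these hormone genes, summed to 17030 to 17890 RPM in BMS-21 libraries and 16450 to 16860 RPM in GLP-1 libraries at 1 h, and the glucagon gene Gcg, with the other alpha-cell markers, to 8.53 to 9.56 RPM in BMS-21 libraries and 7.43 to 8.35 RPM in GLP-1 libraries. Neither pair of ranges overlapped, and the part of these markers in the result was not tested. Among 24 genes of granule cargo and exocytosis the prohormone convertase gene Pcsk2 was called higher (15702 ± 62.2 in BMS-21 libraries and 15043 ± 267 in GLP-1 libraries, log2 fold change 0.062 ± 0.014, limma adjusted p = 0.0125). Scg5, whose product chaperones that convertase, was called lower (13252 ± 774 in BMS-21 libraries and 13873 ± 886 in GLP-1 libraries, log2 fold change -0.066 ± 0.015, limma adjusted p = 0.00923). Iapp and Ins1 kept their calls with any 1 pair left out. Ins2 lost its call without pair 1, 2 or 3 (limma adjusted p up to 0.247). On all 24 libraries with the same block the hormone genes did not pass (limma adjusted p = 0.662 for Iapp, 0.828 for Ins1 and 0.954 for Ins2). Pcsk2 and Scg5 lost their calls without pair 1 or 3 (limma adjusted p up to 0.211 for Pcsk2 and 0.159 for Scg5). Pdx1, the master factor of beta-cell identity, had a log2 fold change of 0.010 (95% interval -0.046 to 0.066) and the receptor gene Glp1r of -0.0046 (95% interval -0.061 to 0.051).

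Genes that respond to glucose through the factors ChREBP and MondoA differed in both directions at 1 h: 1 of 16 was called higher and 3 lower (median log2 fold change -0.0219). Over all genes the shares were 0.221% higher and 0.45% lower. Txnip (ENSRNOG00000021201), an arrestin-fold protein that inhibits thioredoxin and limits glucose entry, had 4435, 4952, 4969 and 4610.1 in BMS-21 libraries, against 4133, 4506, 4364 and 4086 in GLP-1 libraries. Each pair was higher with BMS-21 (log2 fold change 0.15 ± 0.020, limma adjusted p = 5.54e-07). Both agents stood below vehicle, at 400.1 RPM with BMS-21, 360.0 RPM with GLP-1 and 1179 RPM in Control. Gpd1, the glycerol phosphate dehydrogenase that links glycolysis to lipid synthesis, had 4565, 5049, 3669 and 4077 in BMS-21 libraries, against 5150.2, 5254, 4253 and 4431 in GLP-1 libraries (log2 fold change -0.14 ± 0.021, limma adjusted p = 5.57e-06). Mid1ip1, an activator of acetyl-CoA carboxylase, was lower too (log2 fold change -0.10 ± 0.020, limma adjusted p = 0.00259), as was the pyruvate kinase gene Pklr (log2 fold change -0.10 ± 0.023, limma adjusted p = 0.0156). Of 28 genes of cholesterol and fatty acid synthesis 0 were called higher and 3 lower, with a median of -0.057 and 4 members above 0. Acaca, the acetyl-CoA carboxylase that commits carbon to fatty acids, had 2461, 2561, 2243 and 2192 in BMS-21 libraries, against 2699.6, 2842, 2419.7 and 2394 in GLP-1 libraries (log2 fold change -0.13 ± 0.024, limma adjusted p = 0.000538). The other 2 were Acly, which makes cytosolic acetyl-CoA (log2 fold change -0.050 ± 0.012, limma adjusted p = 0.02), and the sterol carrier gene Stard4 (log2 fold change -0.15 ± 0.036, limma adjusted p = 0.0208). The glycolytic enolase gene Eno1 was called lower (log2 fold change -0.096 ± 0.019, limma adjusted p = 0.00158), the only one of 14 glycolysis genes called at this time. Txnip, Gpd1, Acaca and Eno1 kept their calls with any 1 pair left out. Stard4 lost its call without pair 1, 2 or 3 (limma adjusted p up to 0.336). Acly lost its call without pair 1, 3 or 4 (limma adjusted p up to 0.33). Mid1ip1 lost its call without pair 3 (limma adjusted p up to 0.132). Acly was not past the threshold with edgeR.

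The 12 largest increases with a mean of at least 50 also held Wwc2, which encodes a scaffold of the Hippo pathway, and the calcium channel regulator Cacng2, both at low levels. Wwc2 had 106, 118, 106 and 113 in BMS-21 libraries, against 74.6, 104, 74.5 and 66.6 in GLP-1 libraries and overlapped in no library (log2 fold change 0.48 ± 0.10, limma adjusted p = 0.00685). F3, the tissue factor gene, was higher by 0.20 ± 0.046 on the log2 scale. Slc18a1, a vesicular monoamine transporter, was higher by 0.18 ± 0.040, and Chac1, a glutathione-degrading enzyme of the integrated stress response, by 0.20 ± 0.049. Among the 12 largest decreases were Actn2, an alpha-actinin (-0.30 ± 0.059), Foxa3, a forkhead factor of endoderm (-0.27 ± 0.065) and Lpin1, a phosphatidate phosphatase (-0.25 ± 0.060). So were Hspa12a, an atypical member of the HSP70 family (-0.24 ± 0.049), the fatty acid binding protein gene Fabp5 (-0.18 ± 0.031) and Slc8a2, a sodium-calcium exchanger (-0.18 ± 0.034). Fabp5 and Slc8a2 kept their calls with any 1 pair left out. Cacng2 and Chac1 lost their calls with any 1 of the 4 pairs left out (limma adjusted p up to 0.189 for Cacng2 and 0.143 for Chac1). Slc18a1 lost its call without pair 1 or 3 (limma adjusted p up to 0.104). Lpin1 lost its call without pair 1, 3 or 4 (limma adjusted p up to 0.244). Actn2 lost its call without pair 2 (limma adjusted p up to 0.108). F3 and Foxa3 lost their calls without pair 2 or 3 (limma adjusted p up to 0.282 for F3 and 0.288 for Foxa3). Hspa12a lost its call without pair 3 (limma adjusted p up to 0.188). Wwc2 lost its call without pair 3 or 4 (limma adjusted p up to 0.127).

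**Figure D1:**
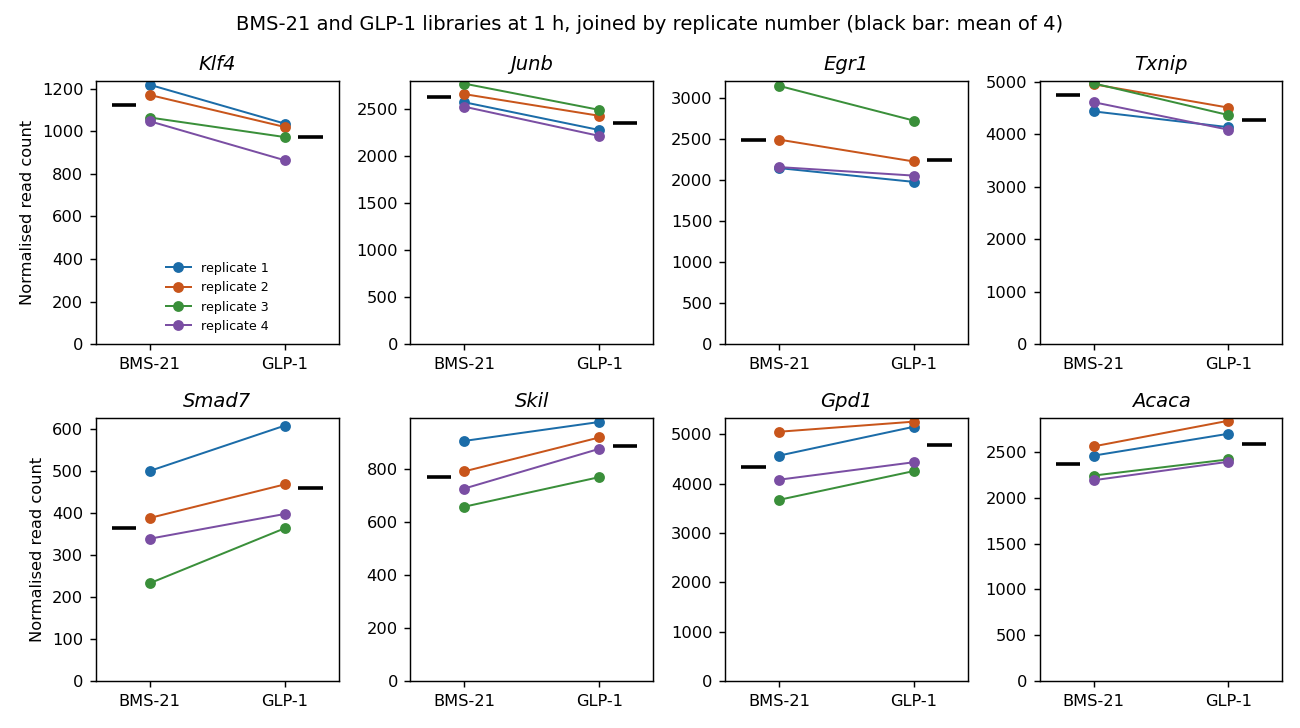
Normalised read counts (vertical axis, from 0) of 8 genes called at 1 h, with BMS-21 libraries on the left and GLP-1 libraries on the right of each panel, lines joining libraries of the same replicate number and black bars at the mean of 4. The lines of Klf4, Junb, Egr1 and Txnip run higher on the BMS-21 side in all 4 pairs and those of Smad7, Skil, Gpd1 and Acaca lower in all 4, while the spread between replicate numbers is often wider than the step within a pair.

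After 6 h more transcripts differed, again by small amounts. Of 12629 genes 217 (1.72%) were called, 97 higher (0.768%) and 120 lower (0.95%) with BMS-21, with median folds of 1.13 and 0.886. Those past 1.5-fold were Ntsr1, the neurotensin receptor gene (log2 fold change 0.84 ± 0.20, chosen after its values were seen), Elfn2 and Trank1 (-1.12 ± 0.21, likewise chosen after its values were seen). Elfn2 kept its call with any 1 pair left out. Ntsr1 lost its call without pair 2 or 4 (limma adjusted p up to 0.129). Trank1 lost its call without pair 4 (limma adjusted p up to 0.0508). Every pair moved the same way in 92 of 97 and 117 of 120 called genes, against 19.3% of all tested, and the groups did not overlap in 32 and 56 of them, against 3.84% of all. As at 1 h, calling by pairs largely builds in these contrasts. Without the replicate block 2 genes were called, Ccny, a membrane cyclin (higher, 0.24 ± 0.033 in the paired fit), and Hspa12a, with 800 at an unadjusted p under 0.05. With the block edgeR called 226 genes, 208 of them the same, and DESeq2 called 38, of which 37 were the same. On all 24 libraries with the same block limma called 275 genes and kept 190 of the 217 calls. Among those it did not keep were Slc2a1 (limma adjusted p = 0.0855), Tgfb2 (0.291), Aldoa (0.15), Adm (0.0633), Prkcz (0.0789) and Hmox1 (0.124).

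Genes of glucose uptake and glycolysis were higher with BMS-21 at 6 h in 4 of 14 measured members and lower in 0 (median log2 fold change 0.0282 against 0.0023 over all genes). The shares of all genes tested were 0.768% called higher and 0.95% lower. Slc2a1 (ENSRNOG00000007284), the widely expressed glucose transporter GLUT1, had 1469.5, 1267, 1872 and 1528 in BMS-21 libraries, against 1149, 1056, 1751 and 1278 in GLP-1 libraries. Replicate 3 was high with both agents and the groups overlapped, yet each pair was higher with BMS-21 (log2 fold change 0.24 ± 0.036, limma adjusted p = 2.45e-05). The aldolase gene Aldoa (log2 fold change 0.11 ± 0.025, limma adjusted p = 0.00504) and the phosphofructokinase genes Pfkl (log2 fold change 0.12 ± 0.029, limma adjusted p = 0.0142) and Pfkp (log2 fold change 0.14 ± 0.034, limma adjusted p = 0.019) followed. Of the 16 measured genes driven by ChREBP, MondoA or glucose, 2 were called higher and 1 lower. Txnip had 6458, 7420.3, 7374 and 7136 in BMS-21 libraries, against 5652, 6384, 6504 and 6002 in GLP-1 libraries, with 1 BMS-21 library inside the GLP-1 range and each pair higher (log2 fold change 0.21 ± 0.025, limma adjusted p = 2.17e-07). In RPM it again lay below vehicle, at 575 RPM with BMS-21, 499 RPM with GLP-1 and 1119 RPM in Control. Its arrestin relative Arrdc3 was higher (log2 fold change 0.27 ± 0.057, limma adjusted p = 0.0038), and Pklr, the pyruvate kinase of liver and islet, lower at 2526 ± 200.2 in BMS-21 libraries and 2862 ± 219 in GLP-1 libraries (log2 fold change -0.18 ± 0.029, limma adjusted p = 7.37e-05). Slc2a1, Txnip and Pklr kept their calls with any 1 pair left out. Pfkl lost its call without pair 2 or 4 (limma adjusted p up to 0.359). Aldoa, Pfkp and Arrdc3 lost their calls without pair 3 or 4 (limma adjusted p up to 0.239 for Aldoa, 0.424 for Pfkp and 0.177 for Arrdc3).

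Genes of the unfolded protein response and the chaperones of the endoplasmic reticulum (ER), which fold proinsulin, were called higher in 6 of 23 measured members and lower in 0. Over all genes the shares at 6 h were 0.768% higher and 0.95% lower. All 23 had a log2 fold change above 0, with a median of 0.0651, whereas 6481 of 12629 genes lay above 0. At 1 h 0 of the 23 were called and the median was 0.0066. Herpud1 (ENSRNOG00000018796), a membrane protein of ER-associated degradation, had 694, 739, 1177 and 1005 in BMS-21 libraries, against 559, 637, 992 and 796 in GLP-1 libraries. Replicates 3 and 4 were higher than 1 and 2 with both agents, the groups overlapped, and each pair was higher with BMS-21 (log2 fold change 0.28 ± 0.042, limma adjusted p = 3.29e-05). Hspa5, the main ER chaperone BiP, had 52918, 51093, 63802 and 61425 in BMS-21 libraries, against 49201, 47100.3, 59796 and 55919 in GLP-1 libraries (log2 fold change 0.11 ± 0.020, limma adjusted p = 0.000239). It stood at 4639 RPM with BMS-21, 4312 RPM with GLP-1 and 3228 RPM in Control. Sdf2l1, an ER cochaperone, was higher by 0.24 ± 0.042 on the log2 scale and the disulfide isomerase gene Creld2 by 0.15 ± 0.029. The large HSP70 relative Hyou1 was higher by 0.10 ± 0.023 and the lectin chaperone gene Calr by 0.083 ± 0.022. In the integrated stress response, 2 of 24 genes were called higher and 0 lower (median 0.0809). Trib3, a pseudokinase induced by ATF4, had 263, 252, 498 and 366 in BMS-21 libraries, against 206, 186, 409 and 272 in GLP-1 libraries (log2 fold change 0.37 ± 0.064, limma adjusted p = 0.00019), and Atf4 itself, the factor at the centre of that response, was higher at 3613 ± 63.2 in BMS-21 libraries and 3374 ± 161 in GLP-1 libraries (log2 fold change 0.10 ± 0.028, limma adjusted p = 0.0446). Ddit3, the proapoptotic factor CHOP, had a log2 fold change of 0.16 ± 0.048 and did not pass (limma adjusted p = 0.0722). Herpud1, Hspa5 and Trib3 kept their calls with any 1 pair left out. Calr lost its call with any 1 of the 4 pairs left out (limma adjusted p up to 0.272). Atf4 lost its call without pair 1, 2 or 4 (limma adjusted p up to 0.335). Hyou1 lost its call without pair 3 or 4 (limma adjusted p up to 0.137). Sdf2l1 and Creld2 lost their calls without pair 4 (limma adjusted p up to 0.0715 for Sdf2l1 and 0.0831 for Creld2).

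Short promoter motifs were looked up in 300-base windows around the annotated gene start (250 bases before and 50 after, RefSeq, build GRCr8), matched by symbol for 9017 of the 12629 genes tested at 6 h and 9043 at 1 h. The motif TGATGNAAN, bound by ATF4 and C/EBP factors (CARE), occurred on either strand in 3 of the 77 matched genes called higher at 6 h, Camk4, Herpud1 and Trib3, or 3.896%, against 1.797% of all genes tested and 3.802% of all 27457 windows. It was also in 4 of the 92 matched genes called lower at 6 h, or 4.348%, so the share was no smaller among them. At 1 h it was in 1 of 21 genes called higher, Chac1. The palindrome TGACGTCA, the site of CREB (CRE), was in 1 of the 77, Scg2, or 1.299%, against 3.36% of genes tested. It was in 2 of the 92 called lower at 6 h, and in 1 of 21 called higher and 4 of 45 called lower at 1 h, against 3.373%. The AP-1 site TGACTCA was in 2 of 77 called higher at 6 h and 5 of 92 called lower, against 3.072%. A match is a description of letters and not a bound site. The windows of the stress genes with a CARE and of Scg2 with a CRE are shown 5′ to 3′ on the gene's strand, with the match in capitals.
Chac1, chr3:126795881-126796180, plus strand: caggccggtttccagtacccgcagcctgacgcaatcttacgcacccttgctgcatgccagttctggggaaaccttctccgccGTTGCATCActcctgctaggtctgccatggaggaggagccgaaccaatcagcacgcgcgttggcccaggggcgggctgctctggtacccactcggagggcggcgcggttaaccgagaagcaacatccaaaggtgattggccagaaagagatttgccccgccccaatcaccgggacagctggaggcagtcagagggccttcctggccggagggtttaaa
Trib3, chr3:161275484-161275783, minus strand: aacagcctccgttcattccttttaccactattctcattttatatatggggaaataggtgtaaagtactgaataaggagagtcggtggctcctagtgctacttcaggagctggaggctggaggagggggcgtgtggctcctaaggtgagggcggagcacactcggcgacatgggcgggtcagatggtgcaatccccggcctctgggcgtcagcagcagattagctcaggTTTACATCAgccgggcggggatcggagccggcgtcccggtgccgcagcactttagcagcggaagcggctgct
Herpud1, chr19:10614658-10614957, minus strand: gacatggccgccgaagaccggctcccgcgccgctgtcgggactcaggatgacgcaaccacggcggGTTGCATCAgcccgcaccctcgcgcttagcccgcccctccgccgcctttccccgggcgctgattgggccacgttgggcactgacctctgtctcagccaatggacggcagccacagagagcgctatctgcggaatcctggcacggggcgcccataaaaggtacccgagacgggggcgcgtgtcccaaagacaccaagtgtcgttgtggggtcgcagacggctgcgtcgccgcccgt
Scg2, chr9:88256817-88257116, minus strand: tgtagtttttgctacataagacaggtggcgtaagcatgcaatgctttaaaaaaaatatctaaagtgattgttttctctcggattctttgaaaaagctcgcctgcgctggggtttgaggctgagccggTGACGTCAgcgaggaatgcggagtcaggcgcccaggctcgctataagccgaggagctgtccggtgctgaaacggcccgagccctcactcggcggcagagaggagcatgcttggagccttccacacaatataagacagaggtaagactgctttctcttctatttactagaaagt

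Cholesterol and fatty acid synthesis was the list with the most genes called lower at 6 h: 6 of 28 measured members, with 0 called higher, a median log2 fold change of -0.0877 and 3 members above 0. This compares with 0.95% lower and 0.768% higher over all genes. Acaca had 2285, 2166, 1989 and 2047 in BMS-21 libraries, against 2403, 2573, 2378 and 2397 in GLP-1 libraries without overlap (log2 fold change -0.20 ± 0.031, limma adjusted p = 4.46e-05). In RPM it stood at 172 RPM with BMS-21, 198 RPM with GLP-1 and 326 RPM in Control, and at 1 h at 199 RPM with BMS-21, 218 RPM with GLP-1 and 227 RPM in Control. The fatty acid synthase gene Fasn (-0.092 ± 0.025), Hmgcs1 of the mevalonate pathway (-0.19 ± 0.046) and Pmvk, the phosphomevalonate kinase (-0.22 ± 0.060), were called lower too. The regulators Srebf1 (-0.079 ± 0.034) and Srebf2 (-0.067 ± 0.028) did not pass. Acaca kept its call with any 1 pair left out. Fasn and Pmvk lost their calls with any 1 of the 4 pairs left out (limma adjusted p up to 0.244 for Fasn and 0.228 for Pmvk). Hmgcs1 lost its call without pair 3 or 4 (limma adjusted p up to 0.314).

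Among targets of CREB and CRTC 4 of 23 were called higher and 0 lower at 6 h (median log2 fold change 0.0355). All genes tested gave 0.768% higher and 0.95% lower. Pde10a, a dual phosphodiesterase that degrades cAMP and cGMP, had 3477, 3892, 4075 and 3966 in BMS-21 libraries, against 3126, 3549, 3477 and 3399.8 in GLP-1 libraries (log2 fold change 0.18 ± 0.028, limma adjusted p = 2.45e-05), while Pde2a, a phosphodiesterase that cGMP stimulates, was lower at 916 ± 13.3 in BMS-21 libraries and 1044 ± 30.0 in GLP-1 libraries without overlap (log2 fold change -0.19 ± 0.039, limma adjusted p = 0.00206). Scg2, a granin of secretory granules whose promoter window is shown above, had 14618, 14467, 15793 and 14742 in BMS-21 libraries, against 13814, 13519, 13566 and 13274 in GLP-1 libraries without overlap (log2 fold change 0.14 ± 0.023, limma adjusted p = 0.00013). Pam, the enzyme that amidates peptide hormones in the same granules, was higher as well (log2 fold change 0.091 ± 0.022, limma adjusted p = 0.012). Cited2, a coregulator that competes for the coactivators CBP and p300, had 1997, 2087, 3385 and 2329 in BMS-21 libraries, against 1611, 1669.8, 2106 and 1829 in GLP-1 libraries. Replicate 3 was highest with both agents and gave the widest step (log2 fold change 0.42 ± 0.063, limma adjusted p = 0.0226). Smad7, lower at 1 h, was the fourth, with 523, 487, 581 and 592 in BMS-21 libraries, against 470.3, 453, 487 and 476 in GLP-1 libraries (log2 fold change 0.21 ± 0.052, limma adjusted p = 0.0209). Pde10a and Scg2 kept their calls with any 1 pair left out. Cited2 lost its call without pair 1 or 4 (limma adjusted p up to 0.0715). Pam lost its call without pair 2, 3 or 4 (limma adjusted p up to 0.143). Pde2a lost its call without pair 2 or 4 (limma adjusted p up to 0.0782). Smad7 lost its call without pair 3 or 4 (limma adjusted p up to 0.308). Panel genes called at neither time had log2 fold changes at 6 h of -0.024 (95% interval -0.083 to 0.036) for Crem and -0.11 (95% interval -0.20 to -0.023) for Per1. The value was 0.018 (95% interval -0.097 to 0.13) for Nr4a1, 0.052 (95% interval -0.00075 to 0.10) for Irs2 and -0.069 (95% interval -0.26 to 0.12) for Pde4b.

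Signalling genes differed at 6 h in several places. Gcgr, the glucagon receptor gene and a relative of the GLP-1 receptor, had 2889, 2969.6, 2759 and 2822 in BMS-21 libraries, against 3310.3, 3271, 3165 and 3210.3 in GLP-1 libraries without overlap (log2 fold change -0.18 ± 0.028, limma adjusted p = 4.46e-05). Its level was 232 RPM with BMS-21, 264 RPM with GLP-1 and 387 RPM in Control. It was the only one called of the 26 measured genes on the list of receptors, adenylyl cyclases and cAMP effectors. That list leaves out the related receptor gene Adcyap1r1, chosen after its values were seen. Adcyap1r1 was called lower (log2 fold change -0.24 ± 0.065, limma adjusted p = 0.0332), and lost its call without pair 1, 2 or 4 (limma adjusted p up to 0.381). Glp1r had a log2 fold change of -0.056 (95% interval -0.12 to 0.011). Camk4, a calcium/calmodulin kinase that phosphorylates CREB, had 1359, 1348, 1513 and 1334 in BMS-21 libraries, against 1199.5, 1166, 1139.5 and 1182 in GLP-1 libraries without overlap (log2 fold change 0.24 ± 0.037, limma adjusted p = 3.88e-05). Nfatc1, a calcineurin-activated factor of beta-cell growth, was higher at 394 ± 33.1 in BMS-21 libraries and 314 ± 28.9 in GLP-1 libraries (log2 fold change 0.33 ± 0.063, limma adjusted p = 0.000865), so that 2 of 13 calcineurin, calcium and depolarisation targets were called. The shares of all genes tested at 6 h were 0.768% called higher and 0.95% lower. Tgfb2, a TGF-beta ligand, had 587, 499, 565 and 488 in BMS-21 libraries, against 503, 403, 451 and 365 in GLP-1 libraries (log2 fold change 0.32 ± 0.052, limma adjusted p = 0.000108), and with Smad7 and Id2 (0.20 ± 0.052) made 3 of 18 TGF-beta, activin and Notch responders called higher, with 0 lower (median 0.0586). Igf1r, the receptor of insulin-like growth factor 1, had 2265, 2383, 2955 and 2436 in BMS-21 libraries, against 1999.5, 1999, 2020.2 and 2111 in GLP-1 libraries without overlap (log2 fold change 0.30 ± 0.056, limma adjusted p = 0.0339). Ccnd2, a cyclin of beta-cell proliferation, was lower (log2 fold change -0.13 ± 0.030, limma adjusted p = 0.00504), and Egr1 was higher as at 1 h, with 629, 692, 825 and 687 in BMS-21 libraries, against 552, 584, 714 and 550.2 in GLP-1 libraries (log2 fold change 0.24 ± 0.046, limma adjusted p = 0.000849). Gcgr, Camk4 and Tgfb2 kept their calls with any 1 pair left out. Id2 lost its call with any 1 of the 4 pairs left out (limma adjusted p up to 0.203). Ccnd2 lost its call without pair 2 or 4 (limma adjusted p up to 0.155). Nfatc1 lost its call without pair 3 (limma adjusted p up to 0.0546). Igf1r and Egr1 lost their calls without pair 4 (limma adjusted p up to 0.0524 for Igf1r and 0.07 for Egr1).

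Of the 26 measured voltage-gated channel genes on the list 3 were called lower and 0 higher at 6 h, all for calcium channels, which admit the calcium that triggers insulin release. Over all genes 0.95% were called lower and 0.768% higher. The potassium channel gene Kcna6, outside that list, was called lower too (log2 fold change -0.45 ± 0.11, limma adjusted p = 0.0122). Cacna1a, the pore of the P/Q-type channel, had 1418, 1463, 1205 and 1482 in BMS-21 libraries, against 1616, 1793, 1569 and 1646 in GLP-1 libraries without overlap (log2 fold change -0.25 ± 0.035, limma adjusted p = 1.09e-05). Its level was 113 RPM with BMS-21, 135 RPM with GLP-1 and 199.6 RPM in Control. The T-type pore gene Cacna1h (log2 fold change -0.12 ± 0.032, limma adjusted p = 0.027) and the regulatory subunit gene Cacnb3 (log2 fold change -0.096 ± 0.026, limma adjusted p = 0.0417) were lower by less. At 1 h 0 of 27 channel genes were called. Cacna1a kept its call with any 1 pair left out. Cacnb3 lost its call with any 1 of the 4 pairs left out (limma adjusted p up to 0.319). Cacna1h lost its call without pair 1, 2 or 4 (limma adjusted p up to 0.228). The hormone genes called at 1 h were not called at 6 h, where Ins1 had a log2 fold change of 0.049 (95% interval -0.14 to 0.24) and Ins2 of 0.15 (95% interval -0.28 to 0.58). Ins2 had 14104, 14654, 22194 and 18047 in BMS-21 libraries, against 15759, 14003, 15276 and 16148 in GLP-1 libraries, and BMS-21 replicate 3 was the highest of the 8 libraries.

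The 12 largest increases at 6 h included Adm, which encodes the vasodilator peptide adrenomedullin, with 92.2, 111, 191 and 93.1 in BMS-21 libraries, against 66.8, 71.5, 146 and 57.8 in GLP-1 libraries (log2 fold change 0.54 ± 0.11, limma adjusted p = 0.00138). Diras2, a Ras-like GTPase, had 298, 252, 305 and 287 in BMS-21 libraries, against 238, 241, 239 and 193 in GLP-1 libraries without overlap (log2 fold change 0.33 ± 0.072, limma adjusted p = 0.00484). Mxd1, a repressor that competes with Myc (0.31 ± 0.082), and Prkcz, an atypical protein kinase C (0.29 ± 0.070), were also among them. Among genes with a mean of at least 50 the largest decrease was in Elfn2, a neuronal membrane protein gene, with 37.5, 36.2, 38.4 and 39.7 in BMS-21 libraries, against 88.0, 70.5, 56.0 and 61.0 in GLP-1 libraries without overlap (log2 fold change -0.82 ± 0.15, limma adjusted p = 0.000308). Tgm2, a transglutaminase (-0.46 ± 0.085), the potassium channel gene Kcna6 (-0.45 ± 0.11), Tox, an HMG-box factor (-0.40 ± 0.093), and the fatty acid hydroxylase gene Cyp4f1 (-0.39 ± 0.071) followed. Elfn2 kept its call with any 1 pair left out. Prkcz lost its call without pair 1, 2 or 4 (limma adjusted p up to 0.0988). Tox lost its call without pair 2, 3 or 4 (limma adjusted p up to 0.101). Mxd1 lost its call without pair 2 or 4 (limma adjusted p up to 0.39). Kcna6 lost its call without pair 3 or 4 (limma adjusted p up to 0.201). Adm, Diras2, Tgm2 and Cyp4f1 lost their calls without pair 4 (limma adjusted p up to 0.0629 for Adm, 0.262 for Diras2, 0.0508 for Tgm2 and 0.0629 for Cyp4f1).

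**Figure D2:**
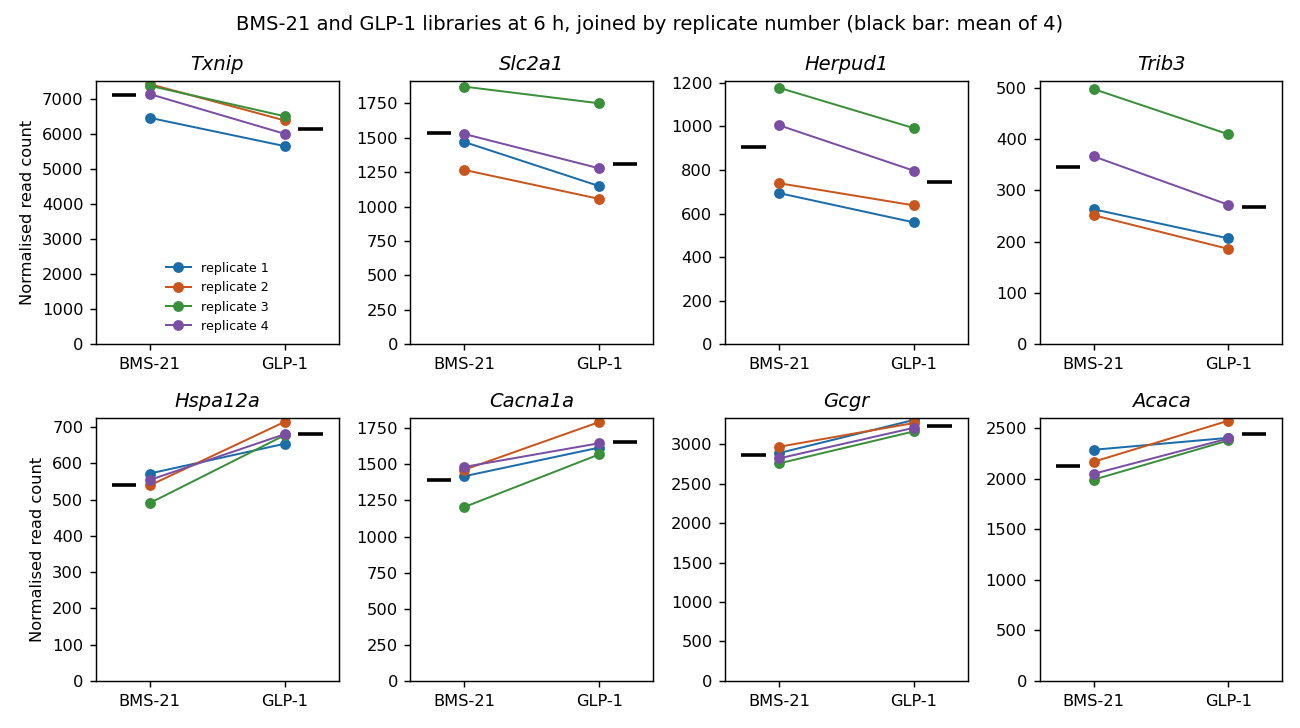
Normalised read counts (vertical axis, from 0) of 8 genes called at 6 h, drawn as in the plot of the 1 h genes: BMS-21 libraries on the left, GLP-1 libraries on the right, lines joining the same replicate number, black bars at the mean of 4. Hspa12a, Cacna1a, Gcgr and Acaca do not overlap between the groups, while Slc2a1, Herpud1 and Trib3 differ between replicate numbers by more than between the agents.

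Across the 24 gene lists the number of called members never exceeded 6. The lists with 0 called at both times were the MAP kinase phosphatases (median log2 fold change 0.0882 at 6 h), the aminoacyl-tRNA synthetases (0.0121), nuclear-encoded oxidative phosphorylation (0.002) and the NF-kB, cytokine and interferon genes (-0.0295). These lists had 15, 20, 18 and 13 measured members. With 0.671% of all genes called at 1 h and 1.72% at 6 h, a count of 0 does not set lists of that size apart.

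**Figure D3:**
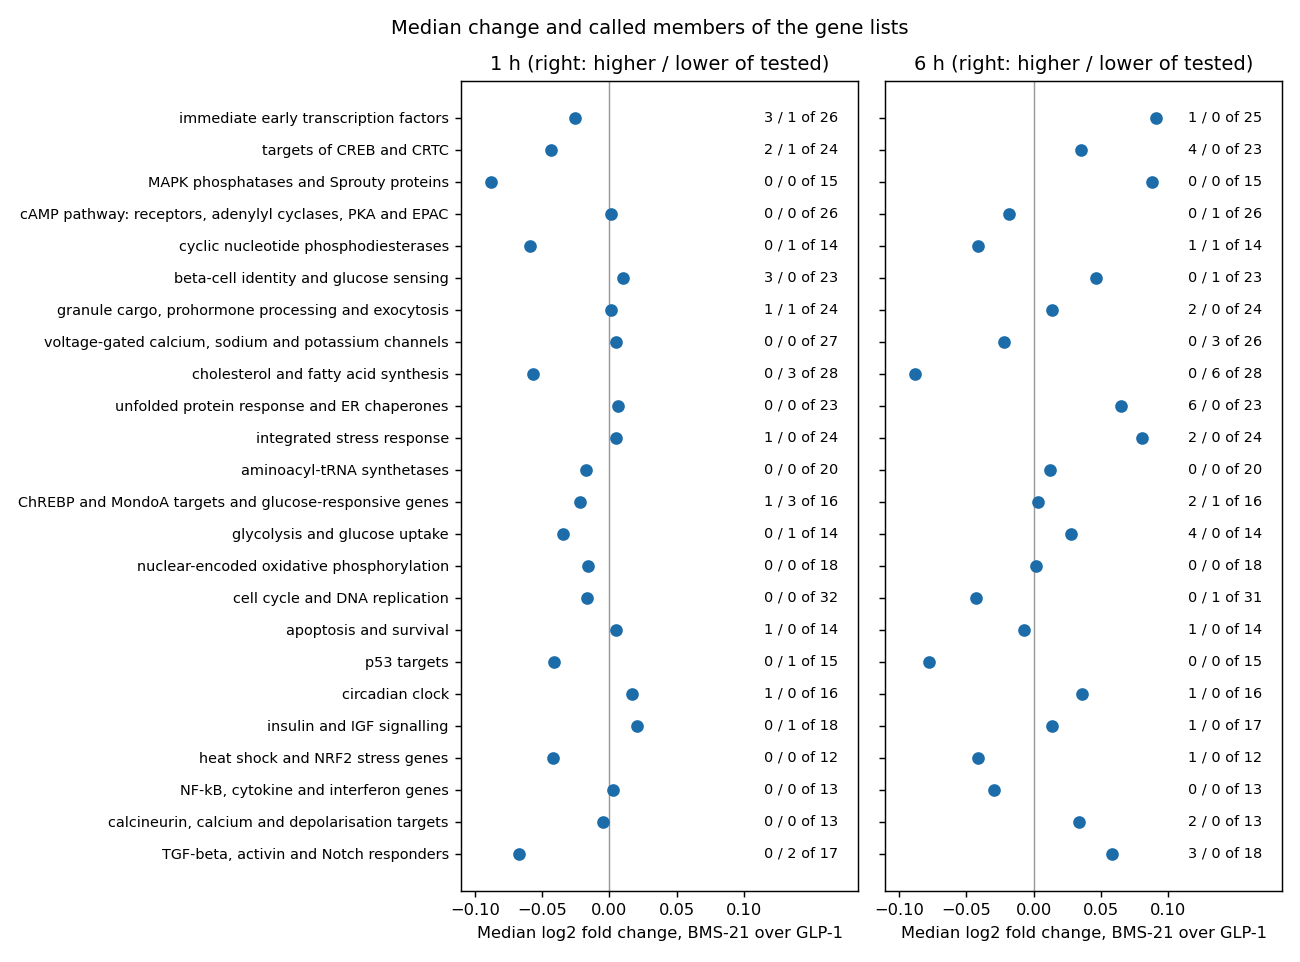
Median log2 fold change of the tested members of each gene list (points, horizontal axis), BMS-21 over GLP-1, at 1 h on the left and 6 h on the right, with the numbers called higher and lower of those tested printed beside each. At 6 h cholesterol and fatty acid synthesis lies at -0.0877 with 6 called lower, and the unfolded protein response at 0.0651 with 6 called higher.

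The 1 h and 6 h comparisons share no library, and 20 genes were called at both, which is 23.53% of the 1 h calls and 9.22% of the 6 h calls. Of these 19 differed in the same direction: Txnip, Egr1, Slc18a1 and Myo16 were higher with BMS-21 at both times, and Hspa12a, Acaca, Sgtb, Slc8a2, Pde2a and Pklr were among the 15 lower at both. Hspa12a had 496, 561, 435 and 446 in BMS-21 libraries, against 511, 619.6, 577 and 580.1 in GLP-1 libraries at 1 h (log2 fold change -0.24 ± 0.049, limma adjusted p = 0.00223). At 6 h it had 572, 539.5, 491 and 555 in BMS-21 libraries, against 654, 715, 678 and 681 in GLP-1 libraries without overlap (log2 fold change -0.34 ± 0.049, limma adjusted p = 1.45e-05). Sgtb, a tetratricopeptide cochaperone, had log2 fold changes of -0.13 ± 0.021 at 1 h and -0.22 ± 0.034 at 6 h, and Slc8a2 had -0.18 ± 0.034 and -0.20 ± 0.038. Some of these calls were lost when 1 pair was left out. At 1 h: Txnip, Acaca, Sgtb and Slc8a2 kept their calls with any 1 pair left out. Slc18a1 and Pklr lost their calls without pair 1 or 3 (limma adjusted p up to 0.104 for Slc18a1 and 0.219 for Pklr). Myo16 lost its call without pair 2 or 3 (limma adjusted p up to 0.174). Egr1 and Hspa12a lost their calls without pair 3 (limma adjusted p up to 0.0699 for Egr1 and 0.188 for Hspa12a). Pde2a lost its call without pair 3 or 4 (limma adjusted p up to 0.169). At 6 h: Txnip, Hspa12a, Acaca, Sgtb and Pklr kept their calls with any 1 pair left out. Pde2a lost its call without pair 2 or 4 (limma adjusted p up to 0.0782). Slc18a1 lost its call without pair 3 or 4 (limma adjusted p up to 0.2). Egr1, Myo16 and Slc8a2 lost their calls without pair 4 (limma adjusted p up to 0.07 for Egr1, 0.203 for Myo16 and 0.0988 for Slc8a2). Most called genes passed at 1 of the times only. Of the 84 genes called at 1 h and measured at 6 h 69 kept their sign, as did 174 of the 216 called at 6 h at 1 h, against 54.2% of all 12458 genes. Called genes had higher counts than all genes, and the share at like counts was not computed. Their median mean count was 1812.1 (higher) and 1809.8 (lower) at 1 h, against 334.6 over all genes. At 6 h it was 1280.1 and 1092.4, against 344.8. Across genes the log2 fold changes of both times had r = 0.1, and 0.225 over the 4978 genes with a mean of at least 500. Genes are not independent replicates, so these are descriptions.

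**Figure D4:**
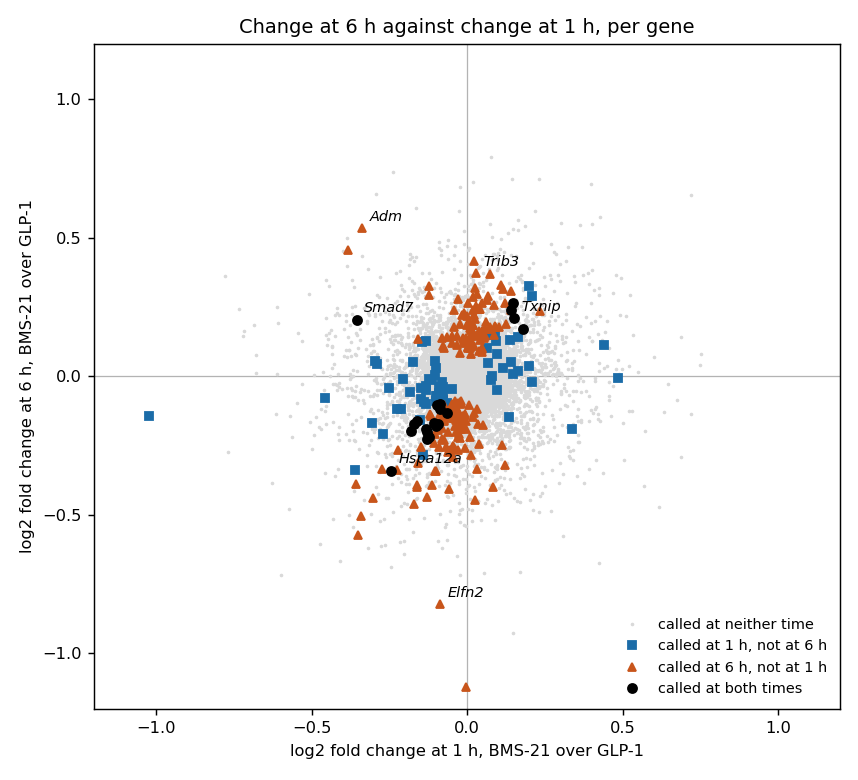
Each point is a gene, with its log2 fold change of BMS-21 over GLP-1 at 1 h (horizontal axis) and at 6 h (vertical axis). The 20 genes called at both times (black circles) lie in the lower left and upper right, except Smad7 at -0.36 and 0.21.

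The difference itself changed between 1 h and 6 h in 43 of 12980 genes tested (0.331%), by edgeR's quasi-likelihood test with a block for each pair, with 27 moving up and 16 down. Smad7 changed most clearly: it was lower with BMS-21 by 0.36 at 1 h and higher by 0.21 at 6 h on the log2 scale (change 0.55, adjusted p = 2.34e-06). Diras2 had 1156, 979.7, 952 and 1091 in BMS-21 libraries, against 1227, 1136, 1009.9 and 1174 in GLP-1 libraries at 1 h (log2 fold change -0.12 ± 0.033) and was called higher at 6 h (change 0.45, adjusted p = 0.000673). Trib3 had 2440.3, 2389, 3309 and 2876 in BMS-21 libraries, against 2404, 2409, 3069.5 and 2884 in GLP-1 libraries at 1 h, with a log2 fold change of 0.029 ± 0.024, and was called higher at 6 h (change 0.33, adjusted p = 0.00416). Dcx, the microtubule protein doublecortin, went the other way: 0.050 ± 0.025 at 1 h and -0.17 ± 0.033 at 6 h (change -0.22, adjusted p = 0.00362). So did Trim24, a coregulator of nuclear receptors (0.11 ± 0.049 and -0.25 ± 0.051, change -0.36) and Fat1, an atypical cadherin (0.017 ± 0.016 and -0.15 ± 0.027, change -0.16), both with an edgeR adjusted p of 0.00416. Mest, an imprinted gene, was lower at 1 h, with 2015, 1788, 1344 and 2002 in BMS-21 libraries, against 2217, 2023, 1662 and 2114 in GLP-1 libraries (log2 fold change -0.18 ± 0.028, limma adjusted p = 3.38e-05), and differed by 0.052 ± 0.034 at 6 h (change 0.22, adjusted p = 0.00416). Leaving out 1 pair at a time, Smad7 kept its call throughout and the others lost theirs without at least 1 pair, with the highest edgeR adjusted p in brackets: Diras2 (0.109) and Fat1 (0.291) without pair 4, Dcx (0.343) and Trib3 (0.143) without pair 2 or 4, Trim24 (0.0945) and Mest (0.256) without pair 2 or 3. With 1 block shared by both times 5 genes were called, without a block 0 (455 at an unadjusted p under 0.05) and with DESeq2 1, and without pair 2, 3 or 4 the count was 3, 17 or 4.

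Placed beside vehicle, the genes called at 6 h lay mostly on one side. Control libraries were not part of the test, and the mean RPM of the 3 groups was compared as a description. RPM placed Control higher than size factors would. At 6 h Control replicate 1 had 12727983 reads and a size factor of 1.0548, against 12244350 and 0.9712 for BMS-21 replicate 1. Even among all tested genes with a higher mean, 50.8% had Control above both agents at 6 h. The placement was not repeated with size factors. Of the 97 genes higher with BMS-21, Control was below both agents in 76 (78.4%), against 36.8% of all tested genes with a higher mean. Of the 120 lower with BMS-21, Control was above both in 97 (80.8%), against 60.9% of all genes with a lower mean. In these genes the BMS-21 mean was farther from vehicle than the GLP-1 mean. Camk4, for example, had 112 RPM with BMS-21, 95.3 RPM with GLP-1 and 21.3 RPM in Control. Igf1r had 203 RPM with BMS-21, 165 RPM with GLP-1 and 44.4 RPM in Control, and Hspa12a had 43.7 RPM with BMS-21, 55.5 RPM with GLP-1 and 126 RPM in Control. Txnip at 6 h was an exception, with BMS-21 nearer to vehicle than GLP-1, and so were Smad7 and Bhlhe40, a clock repressor (243 RPM with BMS-21, 218 RPM with GLP-1 and 343 RPM in Control). At 1 h the picture was mixed: Control lay between the agents in 16 of 28 genes called higher (57.1%, against 23.8% of all), and below both in 25 and above both in 23 of the 57 called lower (43.9% and 40.4%, against 26.9% and 53.4% of all genes with a lower mean).

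**Figure D5:**
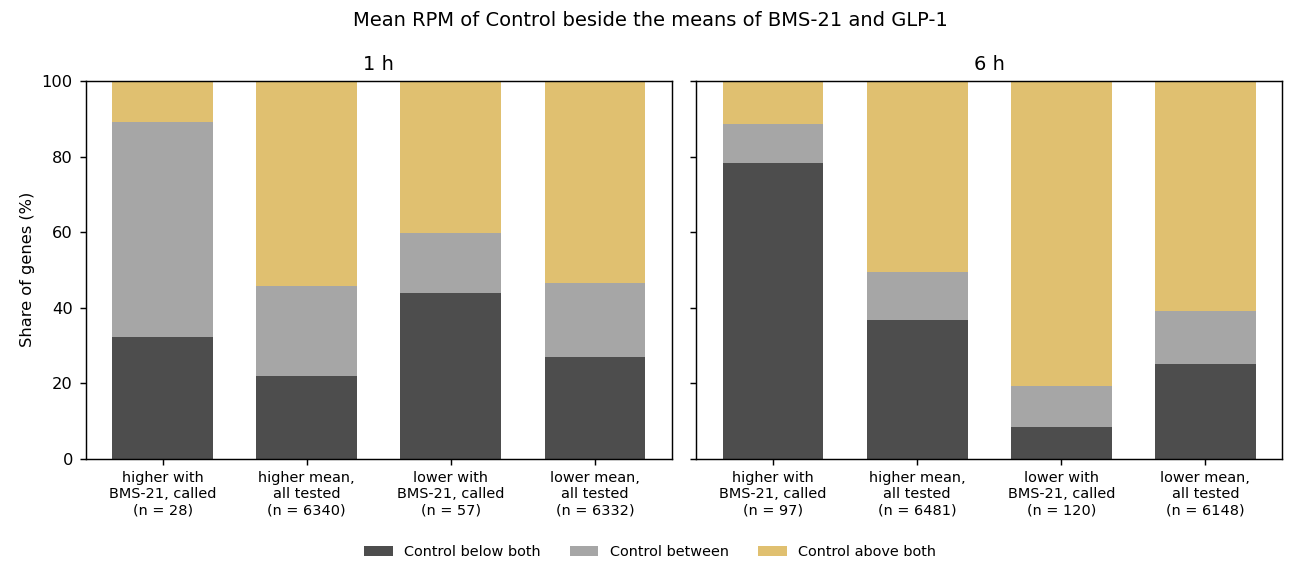
Stacked shares of genes (percent, vertical axis) by where the mean RPM of Control lies, at 1 h on the left and 6 h on the right: below the means of both agents, between them, or above both. The bars give the called genes beside all tested genes with the same sign, and at 6 h 78.4% of genes called higher have Control below both agents and 80.8% of those called lower have it above both.

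The authors' deposited table for 1 h holds 0 genes with an adjusted p under 0.05, of 18717 with a value, and the authors' deposited table for 6 h holds 19, of 5883. All 19 were called here at 6 h. The log2 fold change in the authors' deposited table runs GLP-1 over BMS-21, so its sign is the opposite of that used here: for Hspa12a the authors' deposited table gives 0.24 (adjusted p = 0.00142) and for Camk4 -0.19 (adjusted p = 0.00537). The model behind the deposited values is not given in the sources used here. Their sizes and counts of genes are therefore not like measures to those of the paired limma fit.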

How the data were processed

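RNA was sequenced from TruSeq RNA v2 libraries, a kit that does not mark strand, per the labels' protocols. The submitters' processing notes name TopHat2 2.0.12, Bowtie2 2.2.3.0, SAMtools 0.1.19.0, Subread, DESeq, DESeq2 1.6.3 and the build Rnor_5.0, without roles; the annotation is not given in the sources used here. The authors' deposited tables give a normalised count per gene and library (a signal: reads divided by 1 size factor per library within a table), which steps in whole reads for 100% of values within 0.001, so reads were recovered. The deposited log2 fold change, p-value and Wald statistic (a score) are the authors', and only the first 2 were used, for the comparison with the deposited tables.

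Log2(normalised count + 1) of genes with a mean of at least 10 was tested with limma 3.58.1, agent plus replicate block, with trended and robust variance shrinkage (a gene of unusual spread gets fewer degrees of freedom) and Benjamini-Hochberg adjustment at 0.05. Fold changes are on that scale, which understates low genes. The change between times was tested with edgeR 4.0.16 on recovered reads, and DESeq2 1.42.0 was an alternative. The RPM used to place Control were recovered reads per 1000000 of each library's total, since tables were normalised separately. Same-numbered libraries deviated together from their group means: the correlation was 0.158, 0.174, 0.242 and 0.117 at 1 h and 0.125, 0.199, 0.205 and 0.126 at 6 h for replicates 1 to 4. Each was above the highest correlation of that BMS-21 library with a GLP-1 library of another number. Those were 0.1275, 0.1119, 0.1005 and 0.0772 at 1 h and 0.1044, 0.0815, 0.0645 and 0.0818 at 6 h, so some margins were small. GLP-1 libraries were not compared in turn with BMS-21 libraries of other numbers. The pairing thus comes from the labels' numbers and this check. No 2 libraries of the same group agreed within sampling noise (24 pairs compared). In every group replicates 1 and 2 were closest to each other, as were replicates 3 and 4. With GLP-1 at 6 h the chi-square of read counts per degree of freedom was 1.401 and 1.822 for these. Other combinations of that group had 2.993 to 4.112. Whether the 4 pairs are independent of each other was not tested. The scripts were checked on simulated data.

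Members and gene lists were chosen with earlier results of these data known; 487 of 525 listed symbols were matched. Named were up to 12 genes in each direction with the largest change, a mean of at least 50 and 1 direction in all 4 pairs, up to 3 per list, up to 8 called at both times, up to 10 that changed between times, and a panel of Glp1r, Ins1, Ins2, Fos, Fosb, Crem, Nr4a1, Per1, Irs2, Pde4b, Pdx1, Txnip and Ccnd1. Other members of lists and other genes that are named were chosen after their values were seen. Promoters were matched by symbol to RefSeq's GRCr8 table, whose coordinates are not those of the files' build. A few genes are not reported here.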

Additional observations from a re-analysis of the deposited data

Results flagged for a closer look

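In 8 of the 236 groups of 4 libraries behind the named genes, 1 library stood apart from the other 3 by more than Dixon's 95% critical value for the gap over the range, and chance flags about 1 in 20. Values are normalised read counts. Cacng2 had 44.8 in GLP-1 replicate 1 at 1 h, against 68.4 to 72.5 in the other 3. Plk2 had 1040.0 in GLP-1 replicate 4 at 1 h, against 1190.0 to 1195 in the other 3. Fosb had 971 in GLP-1 replicate 2 at 1 h, against 899 to 905 in the other 3. Adm had 146 in GLP-1 replicate 3 at 6 h, against 57.8 to 71.5 in the other 3. Diras2 had 193 in GLP-1 replicate 4 at 6 h, against 238 to 241 in the other 3. Acaca had 2573 in GLP-1 replicate 2 at 6 h, against 2378 to 2403 in the other 3. Camk4 had 1513 in BMS-21 replicate 3 at 6 h, against 1334 to 1359 in the other 3. Pdx1 had 1809 in BMS-21 replicate 1 at 6 h, against 1703 to 1717 in the other 3. 

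Among named genes, 18 had a BMS-21 over GLP-1 difference that changed between 1 h and 6 h by edgeR's quasi-likelihood test of the change, given as the log2 change of 6 h minus 1 h with the adjusted p in brackets. Moving up were Smad7 0.55 (2.34e-06), Diras2 0.45 (0.000673), Trib3 0.33 (0.00416), Mest 0.22 (0.00416), Pde10a 0.18 (0.00714), Ypel4 0.31 (0.00793), Pik3r1 0.26 (0.0123), Aldoa 0.15 (0.0181), Pfkl 0.17 (0.0348), Bhlhe40 0.16 (0.0373), Adm 0.89 (0.0403) and Herpud1 0.21 (0.0417). Moving down were Dcx -0.22 (0.00362), Fat1 -0.16 (0.00416), Trim24 -0.36 (0.00416), Tox -0.48 (0.0238), Rasd1 -0.28 (0.0348) and Gcgr -0.14 (0.0424). Without any replicate block 0 genes changed between times.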

How the results depend on the processing

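Every called gene kept its sign under each setting that measured it, while the counts depended on the settings. The settings measured all 85 genes called at 1 h, 217 at 6 h and 43 for the change, with 1 exception. A filter at a mean of at least 50 measured 83 of the 85 and 214 of the 217. The kept signs were largely fixed in advance, since the settings refit the libraries by which the genes were called. Most genes called at 1 h or 6 h also had every pair in the same direction. At 1 h 85 genes were called; the fit without the replicate block called 0, DESeq2 2, 1 fit of all 24 libraries 6, a fold of at least 1.5 2, replicates 1 and 2 alone 30, replicates 3 and 4 alone 12, and leaving out 1 pair gave 23 to 69. At 6 h 217 were called; the fit without the replicate block called 2, DESeq2 38, a fold of at least 1.5 3, replicates 1 and 2 alone 97, replicates 3 and 4 alone 348, and leaving out 1 pair gave 46 (without pair 4) to 301 (without pair 1). For the change between times 43 were called; a replicate block shared by both times gave 5, none 0, DESeq2 1, and leaving out 1 pair 3 to 49. The cause was not tested, beyond fewer libraries or a stricter rule where the setting says so. Other pseudocounts, filters, scalings and edgeR stayed within 1.5 times: 81 to 91 at 1 h, 206 to 260 at 6 h and 45 to 58 for the change. DESeq2 gave no adjusted p for some named genes at 6 h, and these were left out of its counts. Levels under 0.228 to 0.281 RPM were below 3 reads, and that floor covers counting error only.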

Other observations

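A list of 43 targets of the hypoxia-inducible factors was compiled after the called genes had been seen, so its counts are a description. Of its 36 measured members 14 were called higher and 0 lower with BMS-21 at 6 h, where 0.768% of all genes were called higher and 0.95% lower. Of the 36, 32 had a log2 fold change above 0 and the median was 0.0994, while 51.3% of all genes lay above 0. At 1 h 0 were called higher and 1, Eno1, lower, 14 lay above 0 and the median was -0.01. The 14 were the adenylate kinase gene Ak4, Slc2a1, Gys1, Bhlhe40, the angiogenic factor gene Vegfa, the histone demethylase genes Kdm3a, Kdm4b and Kdm4c, Adm, Aldoa, Pfkl, Pfkp, Cited2 and the heme oxygenase gene Hmox1. Vegfa had 17499, 17023, 21293 and 18724 in BMS-21 libraries, against 16641, 16235, 18138 and 16811 in GLP-1 libraries (log2 fold change 0.13 ± 0.023, limma adjusted p = 0.000316), and each pair was higher with BMS-21. Epas1, which encodes the factor HIF-2alpha and is not on the list, had 1198, 1184, 1484 and 1363 in BMS-21 libraries, against 1154, 1102, 1163 and 1148 in GLP-1 libraries without overlap (log2 fold change 0.19 ± 0.039, limma adjusted p = 0.00269). Epas1 lost its call without pair 3 or 4 (limma adjusted p up to 0.177). Vegfa lost its call without pair 4 (limma adjusted p up to 0.0629). Ak4, Slc2a1 and Bhlhe40 kept their calls with any 1 pair left out. Gys1, Kdm3a and Adm lost theirs without pair 4, Kdm4b and Pfkl without pair 2 or 4, and Cited2 without pair 1 or 4. Aldoa, Pfkp and Hmox1 lost theirs without pair 3 or 4 (limma adjusted p up to 0.424), and Hmox1 was higher in 3 of 4 pairs. In limma's fit of all 24 libraries Slc2a1, Adm, Aldoa and Hmox1 did not pass.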
